A study of Mus musculus with 4 samples.

Results

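The 10 genes described here are the p53 gene and 9 of its textbook targets (Cdkn1a, Gadd45a, Mdm2, Ccng1, Bax, Trp53, Perp, Sesn1, Zmat3 and Pmaip1), examined in regenerating mouse liver. They were taken by symbol, through probe sets that the platform's annotation pairs with exactly 1 gene. Of the 10, 8 were found, on 14 probe sets, among 10923 genes on 17209 probe sets. No probe set of the deposited table carries the symbol Bax or Trp53 in that annotation, so neither gene was analysed here. The livers came from male C57BL6/J mice aged 6 to 13 weeks. All mice received 1 injection of siRNA in Invivofectamine 3.0, a lipid carrier, and underwent a 40% partial hepatectomy 3 days later. RNA was taken 48 h after the operation. There were 2 arrays of livers given a control siRNA (siControl) and 2 of livers given an siRNA against Orm1 (siOrm), which encodes the acute phase protein orosomucoid. The titles siOrm1 and siOrm2 can also be read as naming different target genes, but the source names place both arrays in a single group. The labels leave it unsaid if the RNA on an array was from 1 mouse or pooled mice; p-values then reflect only how these samples vary, and part of that may be technical.

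p53 is a transcription factor that is kept scarce in unstressed cells by Mdm2, a ubiquitin ligase that marks it for destruction. When DNA damage or other stress stabilises it, it switches on genes that halt the cell cycle, repair DNA, restrain growth or start apoptosis, and it also switches on Mdm2, which closes a negative feedback loop. In liver regrowing after hepatectomy, its target Cdkn1a is well known as a brake on hepatocyte entry into S phase. Several of these targets also answer to other transcription factors, so their level is not a measure of p53 activity alone.

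These genes were chosen as textbook targets of p53, which acts by binding DNA, so matches to its element are not independent of the choice. The promoters were searched for the element that p53 recognises. Those of the 4 analysed genes with the largest differences, among the genes whose promoters were searched, are printed from RefSeq (GRCm38.p6), 5′ to 3′, from 250 bases before to 50 bases after the annotated start. Cdkn1a has entries for 2 starts. Capitals mark exact matches to the p53 half-site, the 10-base element that p53 binds in pairs.
Cdkn1a upstream start, chr17:29090729-29091028, plus strand: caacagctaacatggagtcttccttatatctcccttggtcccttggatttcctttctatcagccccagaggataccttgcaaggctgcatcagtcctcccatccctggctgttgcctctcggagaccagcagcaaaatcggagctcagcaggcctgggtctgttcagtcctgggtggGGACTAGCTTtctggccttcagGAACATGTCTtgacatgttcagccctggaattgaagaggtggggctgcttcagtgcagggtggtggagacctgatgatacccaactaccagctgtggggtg
Cdkn1a downstream start, chr17:29093519-29093818, plus strand: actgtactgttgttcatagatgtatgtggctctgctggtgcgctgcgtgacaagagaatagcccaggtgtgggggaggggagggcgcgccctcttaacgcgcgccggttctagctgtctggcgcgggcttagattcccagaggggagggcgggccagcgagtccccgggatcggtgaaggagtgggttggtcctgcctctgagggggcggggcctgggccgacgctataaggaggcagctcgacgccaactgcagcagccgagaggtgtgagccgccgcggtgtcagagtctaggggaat
Ccng1, chr11:40755237-40755536, minus strand: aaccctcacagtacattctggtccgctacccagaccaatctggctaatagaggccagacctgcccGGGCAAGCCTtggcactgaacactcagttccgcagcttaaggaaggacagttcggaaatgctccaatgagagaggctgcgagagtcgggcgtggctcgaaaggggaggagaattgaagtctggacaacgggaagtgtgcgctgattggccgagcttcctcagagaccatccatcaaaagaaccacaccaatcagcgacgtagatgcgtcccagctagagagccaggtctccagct
Mdm2, chr10:117710709-117711008, minus strand: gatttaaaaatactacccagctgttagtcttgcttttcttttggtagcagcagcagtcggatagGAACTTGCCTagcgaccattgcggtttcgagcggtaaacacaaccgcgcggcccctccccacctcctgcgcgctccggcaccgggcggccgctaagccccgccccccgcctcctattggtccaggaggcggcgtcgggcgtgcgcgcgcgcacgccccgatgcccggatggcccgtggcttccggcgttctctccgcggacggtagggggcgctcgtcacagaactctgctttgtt
Gadd45a, chr6:67037358-67037657, minus strand: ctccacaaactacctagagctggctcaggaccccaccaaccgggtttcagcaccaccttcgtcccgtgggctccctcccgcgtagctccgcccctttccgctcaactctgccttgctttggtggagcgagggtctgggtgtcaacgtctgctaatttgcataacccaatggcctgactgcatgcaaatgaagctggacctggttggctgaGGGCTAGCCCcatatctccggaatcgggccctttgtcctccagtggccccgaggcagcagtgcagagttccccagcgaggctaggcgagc

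The search covered 9 promoter entries for 7 of the 10 genes, and all 7 genes had an exact p53 half-site in at least 1 entry. The 7 include Bax and Trp53, the p53 gene itself, neither of which has expression values here. The promoters of Perp, Zmat3 and Pmaip1 were not searched. In all, 7 of the 9 entries held a half-site, against 8.36% of the 32851 promoters of the same length. The consensus reads the same on both strands. The upstream Cdkn1a promoter held 2 exact half-sites, at -73 and -51 from the start, while the downstream one, with 23 CpG dinucleotides against 2 upstream, held 0. The half-site at -51 is followed directly by a second one with 1 mismatch, so that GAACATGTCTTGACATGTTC forms a full site. Ccng1 also had a full site without a spacer, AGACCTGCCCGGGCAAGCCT, at -195 with 1 mismatch. Counting pairs with a spacer of up to 13 bases and up to 3 mismatches, with the central C and G kept, 6 of the 9 entries held a full site, against 15.6% of all promoters. The exact half-site of Gadd45a lay at -40 and that of Mdm2 at -186, and the Mdm2 window held 0 full sites by this rule. The Mdm2 and Gadd45a windows also differed in their other elements. The GC box GGGCGG, found on either strand in 35.7% of all promoters, occurred at 2 places in Mdm2 and at 1 in Gadd45a, and the CCAAT box, letters CCAAT, in 37.4% of all promoters, at 4 places in Ccng1 and at 1 each in Mdm2 and Gadd45a. None of these GC and CCAAT boxes overlapped an exact half-site. A match is a description of letters in this window and does not show binding, and sequence outside the window was not searched.

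Each expression value given here is a log2 signal from which the probe set's median over the 4 arrays was subtracted, averaged over the probe sets of a gene, and differences are siOrm minus siControl. Logarithms were taken to be of base 2, which no source states. Centring puts the middle 2 arrays of every probe set at equal distances above and below 0, and it removes the level of a gene, so signal over background and the identity of the tissue by its hepatocyte markers could not be checked. The arrays were compared with limma over all 10923 genes, with Benjamini-Hochberg adjustment and a threshold of 0.05. No gene passed, 0% in either direction, and 4.76% had an unadjusted p under 0.05 (520 genes; 2.18% higher and 2.58% lower in siOrm). The groups did not overlap for 17% of genes with siOrm higher and for 15.3% with siOrm lower. The targeted gene Orm1 itself stood at 0.02 and 0.19 in siControl and at -0.24 and -0.02 in siOrm, a difference of -0.23 (SE 0.15) that did not pass (limma, adjusted p = 0.994), so it checks the group labels only weakly. It was -0.12 without siOrm replicate 1 and -0.34 without siOrm replicate 2. Of the arrays, siControl replicate 2 stood apart, with 137 genes above 1 against at most 12 in any other array. Over all genes the closest pair crossed the groups, siControl replicate 1 with siOrm replicate 2, with an SD of the difference of 0.233. That SD was 0.249 between the siOrm arrays and 0.384 between the siControl arrays.

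None of the 8 p53 target genes passed the test over all genes (limma, 0 higher and 0 lower). The largest positive difference was that of Gadd45a and the largest negative one that of Cdkn1a. These were the 2 of 8 genes with an unadjusted p under 0.05, 1 in each direction, against 4.76% of all genes. The groups were separated, with siOrm lower, for Cdkn1a and Mdm2 (2 of 8, against 15.3% of all genes) and, with siOrm higher, for Gadd45a and Perp (2 of 8, against 17%), while they overlapped for the other 4 genes. The median difference of the 8 genes was -0.14, against 0.01 over all genes. It was 0.12 without siControl replicate 2 and -0.40 without siControl replicate 1, so its direction turned on the siControl arrays.

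**Figure D1:**
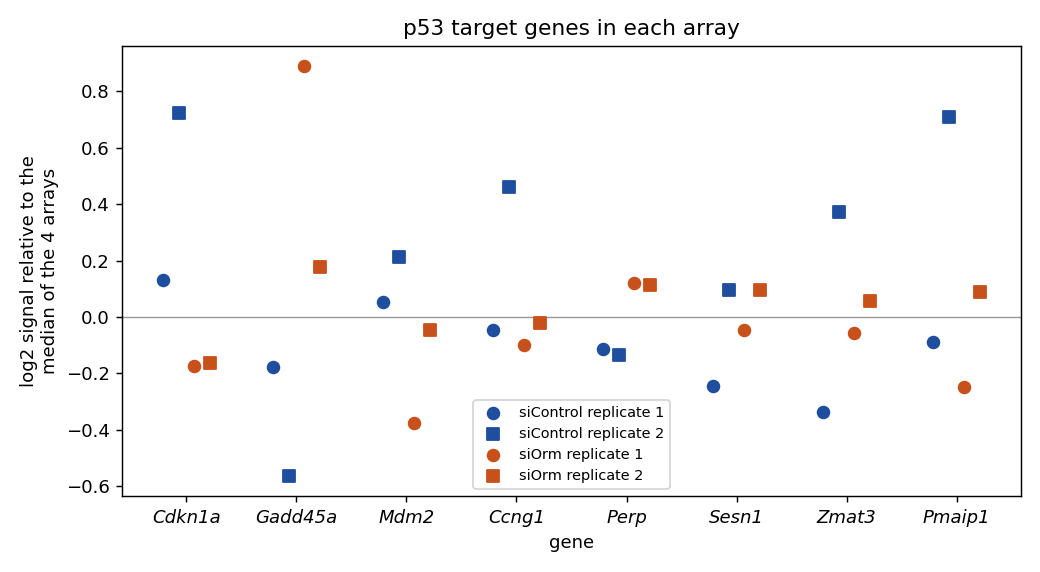
Log2 signal relative to the median of the 4 arrays (vertical axis) of each p53 target gene (horizontal axis), with 1 point for each array. The siControl replicate 2 squares are the highest point for 6 of the 8 genes, and the groups separate for Cdkn1a, Gadd45a, Mdm2 and Perp.

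Cdkn1a encodes p21, the inhibitor of cyclin-dependent kinases through which p53 stops cells before S phase. Its values were 0.13 and 0.72 in siControl livers and -0.17 and -0.16 in siOrm livers. The siOrm arrays were almost equal, the siControl arrays were 0.59 apart, and the groups did not overlap. The difference was -0.60 (SE 0.22, 95% interval from -1.14 to -0.06), or 1.51-fold lower, and it did not pass over all genes (limma, adjusted p = 0.994). Its size exceeded that of 96.9% of all genes. It was -0.30 without siControl replicate 2. Without siControl replicate 1 it was -0.89 and passed (limma, adjusted p = 0.0450), but in that fit siControl replicate 2 alone stands for its group and is assumed to vary as the siOrm arrays do.

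The 2 probe sets of Cdkn1a differed in how they divided the arrays. Probe set 1424638_at stood at 0.29 and 0.79 in siControl and at -0.37 and -0.29 in siOrm, a difference of -0.87 (SE 0.20). Probe set 1421679_a_at stood at -0.03 and 0.66 against 0.03 and -0.04, a difference of -0.32 (SE 0.25). On the latter, siControl replicate 1 was level with the siOrm arrays and only siControl replicate 2 stood apart, so the separation of the groups rested on 1 of the 2 probe sets. Neither passed when each probe set was fitted by itself (limma, adjusted p = 0.966 for both).

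**Figure D2:**
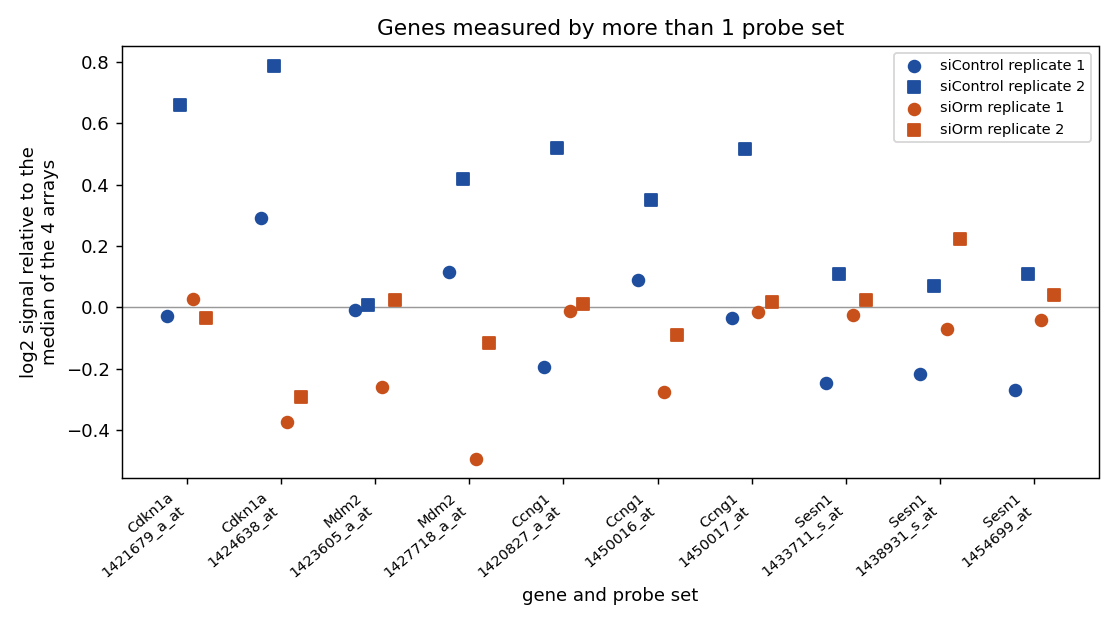
Log2 signal relative to the median of the 4 arrays (vertical axis) for each probe set of the 4 genes measured by more than 1 (horizontal axis), with 1 point for each array. The groups separate on 1 of 2 probe sets of Cdkn1a, 1 of 2 of Mdm2, 1 of 3 of Ccng1 and 0 of 3 of Sesn1.

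Gadd45a, a small stress protein that takes part in growth arrest, DNA repair and signalling to p38 and JNK kinases, went the other way. Its single probe set stood at -0.18 and -0.56 in siControl and at 0.89 and 0.18 in siOrm. All 4 arrays were spread out, with siOrm replicate 1 highest and siControl replicate 2 lowest, and the groups did not overlap. The difference was 0.90 (SE 0.27, 95% interval from 0.23 to 1.58), or 1.87-fold higher, larger in size than that of 99.0% of genes, and it did not pass (limma, adjusted p = 0.994). Leaving out siOrm replicate 1 gave 0.55, and leaving out siOrm replicate 2 gave 1.26. Its relative Gadd45b, which is induced early by cytokines and in regenerating liver, lay on the opposite side, at 0.27 and 0.21 in siControl and at -0.15 and -0.19 in siOrm. Gadd45b differed by -0.41 (SE 0.13), with both groups tight and apart. The erythroid markers (3 of 6 measured), on average at -0.09 and -0.18 in siControl and at 0.39 and 0.09 in siOrm, had the same order of arrays as Gadd45a, and the part of red cell RNA in its value was not tested. Measured as the root mean square difference over the 4 arrays, the genes whose values were most like those of Gadd45a were Car1, a carbonic anhydrase of red cells (0.0817), Leap2, a secreted liver peptide (0.0823), and Acsm3, a mitochondrial acyl-CoA synthetase (0.125).

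Mdm2 and Ccng1 belong to the feedback arm, Mdm2 as the ligase that destroys p53 and Ccng1 as cyclin G1, which recruits a phosphatase to Mdm2. Mdm2 stood at 0.05 and 0.21 in siControl and at -0.38 and -0.05 in siOrm, without overlap, although siControl replicate 1 and siOrm replicate 2 were closer to each other than the arrays within either group were. The difference was -0.34 (SE 0.17, 95% interval from -0.76 to 0.07; limma, adjusted p = 0.994). Leaving out siOrm replicate 1 gave -0.18. Its probe sets did not tell the same story. Probe set 1427718_a_at stood at 0.12 and 0.42 against -0.49 and -0.12, a difference of -0.57 (SE 0.20). Probe set 1423605_a_at stood at -0.01 and 0.01 against -0.26 and 0.02, a difference of -0.12 (SE 0.16), with 3 of its arrays almost equal and siOrm replicate 1 below them.

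Ccng1 stood at -0.05 and 0.46 in siControl and at -0.10 and -0.02 in siOrm. Here siControl replicate 2 stood alone above 3 arrays that were close together, and the groups overlapped. The difference of -0.27 (SE 0.20, 95% interval from -0.76 to 0.22) shrank to -0.01 without siControl replicate 2 and was -0.52 without siControl replicate 1. All 3 probe sets had siControl replicate 2 highest, at 0.35 to 0.52, and on 1 of them, 1450016_at, the groups were apart, with 0.09 and 0.35 against -0.28 and -0.09.

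Perp and Pmaip1 act in cell death. Perp is a membrane protein of desmosomes that p53 induces during apoptosis, and Pmaip1 encodes Noxa, which neutralises the survival protein Mcl1. Perp was the most even of the 8 genes, at -0.12 and -0.13 in siControl and at 0.12 and 0.12 in siOrm. The arrays of a group differed by 0.02 in siControl and by 0.0039 in siOrm, and the groups did not overlap. The difference of 0.24 (SE 0.12, 95% interval from -0.07 to 0.55), or 1.18-fold, did not pass (limma, adjusted p = 0.994). Its SE is wider than these gaps because limma draws the spread of each gene towards that of all genes. It lay between 0.23 and 0.25 whichever array was left out.

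Pmaip1 stood at -0.09 and 0.71 in siControl and at -0.25 and 0.09 in siOrm, so that siControl replicate 2 stood far above the other arrays and siControl replicate 1 lay between the siOrm arrays. The difference was -0.39 (SE 0.29, 95% interval from -1.10 to 0.32). Without siControl replicate 2 it was 0.0072, without siControl replicate 1 it was -0.79, and without siOrm replicate 1 it was -0.22.

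Sesn1 and Zmat3 complete the set. Sesn1 encodes sestrin 1, which restrains growth signalling through mTORC1 and lowers oxidative stress, and Zmat3 encodes an RNA-binding zinc finger protein. Sesn1 stood at -0.24 and 0.10 in siControl and at -0.05 and 0.10 in siOrm. Its lowest array was siControl replicate 1 and the other siControl array was level with the higher siOrm array. The difference was 0.10 (SE 0.17, 95% interval from -0.31 to 0.51) and turned to -0.07 without siControl replicate 1. Leaving out siControl replicate 2 gave 0.27, and leaving out siOrm replicate 2 gave 0.03. Its 3 probe sets ranged from 0.07 to 0.15, all with siControl replicate 1 lowest. Zmat3 stood at -0.34 and 0.37 in siControl and at -0.06 and 0.06 in siOrm, so that the siControl arrays lay on both sides of the siOrm arrays. Its difference of -0.02 (SE 0.25, 95% interval from -0.63 to 0.60) was 0.34 without siControl replicate 2, -0.37 without siControl replicate 1 and 0.04 without siOrm replicate 1. For neither gene do the intervals show that the groups are alike.

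**Figure D3:**
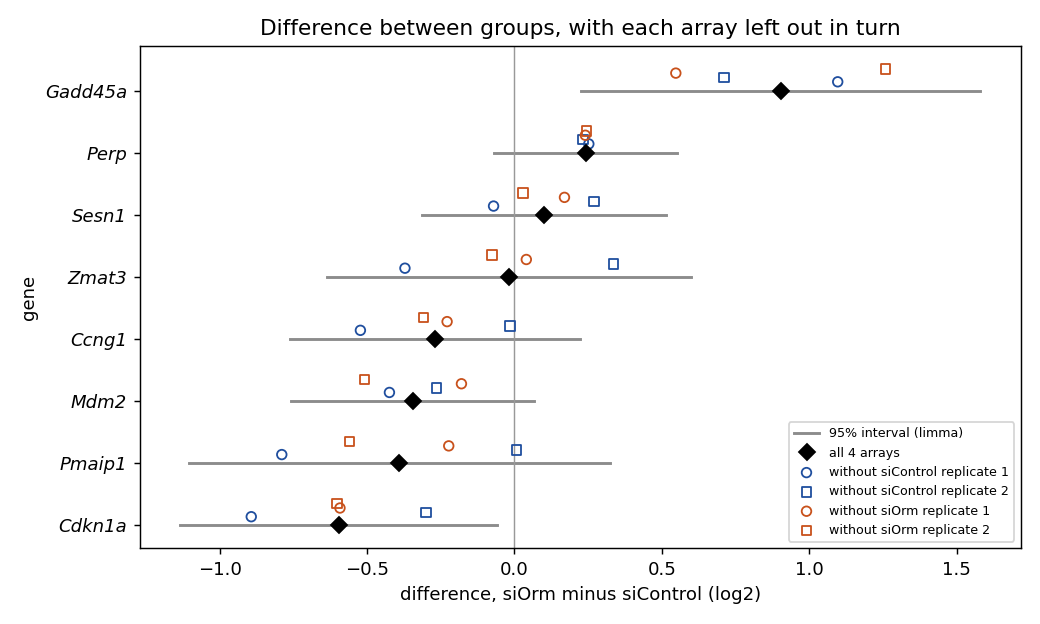
Difference between siOrm and siControl (horizontal axis, log2) for each p53 target gene (vertical axis), as a filled diamond with its 95% interval from limma, and as open symbols with 1 array left out. The interval lies wholly on one side of 0 for Gadd45a and Cdkn1a, and the open symbols of Zmat3, Pmaip1 and Sesn1 fall on both sides.

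The array in which these genes were most often highest was siControl replicate 2. It was the highest of the 4 for 6 of the 8 genes (Cdkn1a, Mdm2, Ccng1, Sesn1, Zmat3 and Pmaip1), against 28.1% of all genes. The siControl arrays were further apart than the siOrm arrays for 6 of the 8, against 62.6% of all genes, with a median gap of 0.45 between the siControl arrays and of 0.13 between the siOrm arrays. Over all genes those median gaps were 0.20 and 0.13. The mean of the 8 genes was -0.10 and 0.23 in siControl and 0.00081 and 0.04 in siOrm, so both siOrm arrays lay between the siControl arrays. The closest pairs by root mean square difference over the 4 arrays were Sesn1 with Zmat3 (0.147) and Ccng1 with Pmaip1 (0.155), while the gene closest to Gadd45a, Perp, was 0.443 away.

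Markers of other cells were also high in siControl replicate 2. The mean of 10 macrophage and Kupffer cell markers was 0.72 there, while siControl replicate 1 had -0.26 and the siOrm arrays -0.03 and -0.04, and 9 of the 10 were highest in that array, as were 28.1% of all genes. The neutrophil list (8 of 9 markers measured) stood at 0.08 and 0.54 in siControl and at -0.05 and -0.04 in siOrm, with 3 of 8 highest in siControl replicate 2. Stellate cell markers (7 of 8 measured) stood at -0.14 and 0.37 against -0.10 and 0.10, and endothelial markers (6 of 7) at -0.19 and 0.27 against 0.08 and -0.03. Hepatocyte markers (7 of 10) ran from -0.06 in siControl replicate 2 to 0.04 in siControl replicate 1. T and B cell markers (7 of 8) were lowest in siControl replicate 2, at -0.19, and highest in siControl replicate 1, at 0.17. Cholangiocyte markers (4 of 6) ran from -0.08 in siControl replicate 1 to 0.21 in siOrm replicate 2. Which of the markers were near background cannot be read from centred values, and the part of these cells in the values of the p53 target genes was not tested. In whole liver, fewer cells of a type and less RNA per cell cannot be told apart.

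**Figure D4:**
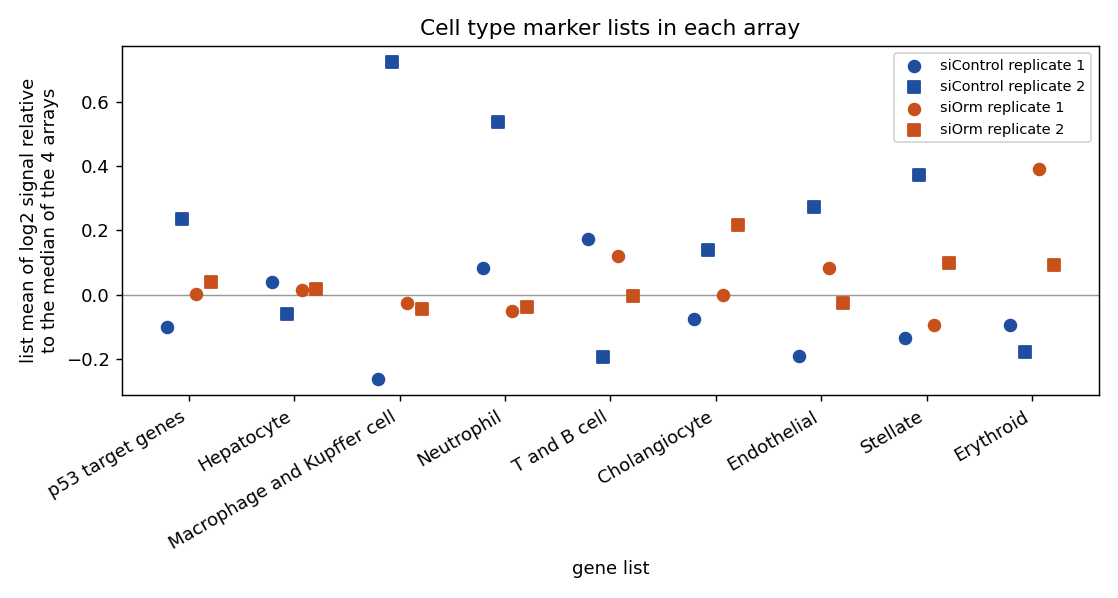
Mean log2 signal relative to the median of the 4 arrays (vertical axis) over the 8 p53 target genes and over each list of cell type markers (horizontal axis), with 1 point for each array. The siControl replicate 2 square is the highest point for the p53 target genes and for the macrophage, neutrophil, endothelial and stellate lists.

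The other genes of the pathway were grouped by role, and 0 of them passed over all genes in either direction (limma). The lists were chosen with earlier results of these data known, and the genes of a list share the same arrays. The shares set against all genes are therefore descriptions, and a shift of a whole list was not tested. Among 20 of 25 listed regulators of p53, 3 were separated downwards and 1 upwards, shares no larger than the 15.3% and 17% of all genes, and the median was -0.07. The lowest were Aurka, a mitotic kinase that phosphorylates p53, at 0.23 and 1.04 against -0.23 and -0.34, a difference of -0.92 (SE 0.27), and Chek1, a checkpoint kinase, at -0.55 (SE 0.30). Prkdc, the catalytic subunit of a DNA damage kinase, differed by -0.27 (SE 0.18) and the coactivator Crebbp by 0.20 (SE 0.13). The Aurka value was the only 1 of the 20 with an unadjusted p under 0.05 (2.58% of all genes were lower at this p). Without siControl replicate 2, Aurka differed by -0.52, Chek1 by -0.10 and Prkdc by -0.05. Without siControl replicate 1, Chek1 differed by -1.001 and Prkdc by -0.49. The value of Chek1 also turned on which probe sets were averaged. It was -0.22 without probe sets whose names end in _s_at, _x_at or _a_at, and -1.20 with the probe set of the widest range.

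Further targets in arrest and feedback (17 of 19 measured) had a median of 0.00023, with 3 separated downwards, where all genes gave 15.3%, and 1 upwards, where all genes gave 17%. Of the 17, 2 were lower at an unadjusted p under 0.05 (2.58% of all genes), Btg2 and Ckap2. Btg2, an antiproliferative gene that p53 and growth signals both induce, stood at 0.42 and 0.91 in siControl and at -0.84 and -0.42 in siOrm. It had the largest difference in the list, -1.30 (SE 0.23; limma, adjusted p = 0.857), in the same direction as Cdkn1a. Ckap2, a spindle protein, differed by -0.71 (SE 0.21), Phlda3, an inhibitor of Akt, by -0.24 (SE 0.13) and Ei24 by 0.25 (SE 0.15). Without siControl replicate 2, the differences were -1.06 for Btg2, -0.44 for Ckap2 and 0.16 for Ei24, and Ei24 was at 0.15 without siOrm replicate 1.

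Further apoptosis targets (14 of 18 measured) had a median of -0.04. Of the 14, 12 lay below 0, against 47.8% of all genes. Only 1 was separated downwards and 2 upwards, below the 15.3% and 17% of all genes, and 0 had an unadjusted p under 0.05 (4.76% of all genes). Apaf1, the scaffold of the apoptosome, stood at -0.17 and 0.86 against -0.34 and 0.17, with siControl replicate 2 alone above the others as for Pmaip1. Casp1, Aen and Bid differed by 0.16, -0.14 and -0.10. Each of these small values depended on single arrays: without siControl replicate 1 Casp1 differed by 0.03 and Bid by -0.03, without siControl replicate 2 Aen differed by -0.05, and without siOrm replicate 1 Aen differed by -0.06 and Bid by -0.03. In the wider BCL2 family (12 of 17 measured), 3 genes were separated in each direction (17% of all genes upwards and 15.3% downwards), 0 had an unadjusted p under 0.05 and the median was 0.05. The survival gene Bcl2 stood at -0.07 and -0.57 against 0.29 and 0.07, a difference of 0.50 (SE 0.20). Bik differed by 0.40 (SE 0.18), Bnip3 by 0.38 (SE 0.22) and Bok by -0.23 (SE 0.13). Leaving out siControl replicate 2 gave 0.25 for Bcl2 and 0.11 for Bnip3, leaving out siControl replicate 1 gave 0.65 for Bnip3, and leaving out siOrm replicate 2 gave 0.23 for Bik.

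DNA repair targets (13 of 14 measured) had a median of -0.07, with 5 separated downwards, against 15.3% of all genes, and 2 upwards, against 17%. Rrm2b, the p53-inducible subunit of ribonucleotide reductase, was higher in both siOrm arrays, at -0.13 and -0.25 against 0.13 and 0.38, a difference of 0.44 (SE 0.15). Pcna, the sliding clamp of replication that p21 also binds, stood at 0.11 and 0.29 against -0.31 and -0.11, a difference of -0.41 (SE 0.15). The ligase Lig1 differed by -0.76 (SE 0.28) and the base excision nuclease Apex1 by -0.41 (SE 0.16). These 4 were the genes of the list with an unadjusted p under 0.05, 1 higher and 3 lower, where all genes gave 2.18% and 2.58%. Lig1 differed by -0.36 without siControl replicate 2 and by -1.16 without siControl replicate 1, which left Apex1 at -0.25.

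Metabolism and redox targets (16 of 21 measured) had a median of 0.15, and 14 of the 16 lay above 0, against 52.2% of all genes. The groups were separated upwards for 9, against 17% of all genes, and downwards for 1, against 15.3%. These shares only describe the list, which was chosen with earlier results of these data known and whose genes share the same arrays. A shift of the list as a whole was not tested. Tap1, a peptide transporter and neither a metabolic nor a redox gene, is among the 9, at 0.17 (SE 0.14). The urate and glucose carrier Slc2a9 stood at -0.19 and -0.16 against 0.30 and 0.16, a difference of 0.41 (SE 0.13). Pank1, which starts coenzyme A synthesis, differed by 0.37 (SE 0.14), Sco2, needed to assemble cytochrome oxidase, by 0.34 (SE 0.15), and Dcxr, a sugar reductase, by 0.47 (SE 0.22). Without siOrm replicate 1, Sco2 differed by 0.21 and Dcxr by 0.16, and without siOrm replicate 2 Dcxr differed by 0.77. Slc2a9 and Pank1 had an unadjusted p under 0.05, 2 of 16 against 2.18% of all genes. The gene separated downwards was Ddit4, an inhibitor of mTORC1 that is induced by stress, named here after its values were seen. Ddit4 stood at 0.02 and 1.38 against -0.17 and -0.02, the largest difference of the list at -0.80 (SE 0.43). That value rested on siControl replicate 2, without which it was -0.12; without siControl replicate 1 it was -1.48.

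Relatives of the p53 target genes by family (11 of 16 measured) had a median of -0.03, with 2 separated downwards (15.3% of all genes) and 1 upwards (17%). Gadd45b was the 1 gene with an unadjusted p under 0.05, where 2.58% of all genes were lower. After it, the smallest p belonged to Cdkn1b, which encodes the p21 relative p27, at 0.19 (SE 0.26), to Pmp22, a relative of Perp, at -0.19 (SE 0.32), and to Ccng2, the relative of Ccng1, at 0.10 (SE 0.19). All 3 changed sign without siControl replicate 2, to -0.06, 0.30 and -0.11. For Cdkn1b the siControl arrays stood at 0.17 and -0.33 and the siOrm arrays at -0.17 and 0.39, so that siControl replicate 2 was the lowest array there and the highest for Cdkn1a.

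The cyclins and kinases listed as held by p21 (10 of 11 measured) had a median of -0.30, or -0.13 without siOrm replicate 1, and 0 passed over all genes. p21 inhibits kinases as proteins, while the values here are of RNA, and a link to the Cdkn1a difference was not tested. Differences were below 0 for 9 of the 10, against 47.8% of all genes, and Cdk6 was at 0.0039. The groups were separated downwards for 4, against 15.3% of all genes, and upwards for 0, against 17%, and 7 of 10 were highest in siControl replicate 2, against 28.1%. This list too was chosen with earlier results of these data known, and its genes share the same arrays. Its shares are therefore descriptions, and a shift of the whole list was not tested. Ccna2, the cyclin of S phase, stood at 0.18 and 0.63 against -0.64 and -0.18, a difference of -0.82 (SE 0.23), and Ccne1, which starts S phase, at 0.22 and 0.13 against -0.25 and -0.13, a difference of -0.36 (SE 0.13). Cdk1 differed by -0.82 (SE 0.38) and Ccnd3 by -0.24 (SE 0.16). Leaving out siControl replicate 2 gave -0.36 for Cdk1, leaving out siControl replicate 1 gave -1.28, and leaving out siOrm replicate 1 gave -0.45 for Cdk1 and -0.07 for Ccnd3, while Ccnd3 was at -0.40 without siOrm replicate 2. Ccna2 and Ccne1 had an unadjusted p under 0.05, 2 of 10 against 2.58% of all genes, and neither passed over all genes (limma, adjusted p = 0.994 for both).

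**Figure D5:**
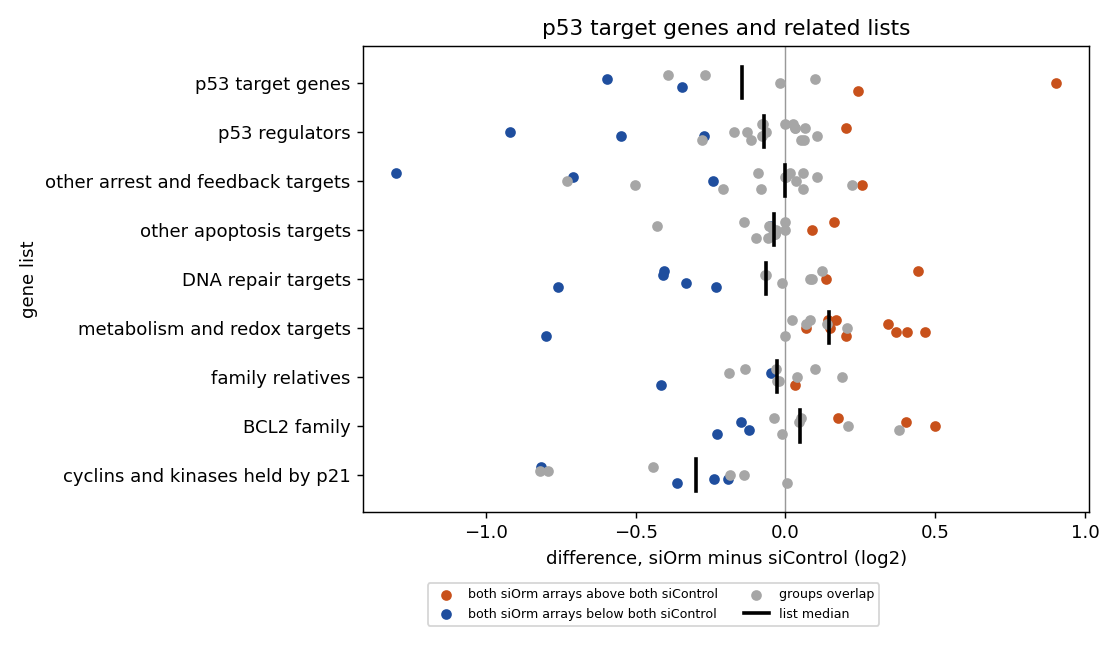
Difference between siOrm and siControl (horizontal axis, log2) for each measured gene of the p53 target genes and of the related lists (vertical axis), with 1 point per gene, coloured by whether the groups overlap, and a black bar at the list median. The medians run from -0.30 for the cyclins and kinases held by p21 to 0.15 for the metabolism and redox targets, and the p53 target genes lie on both sides of 0.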

How the data were processed

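The authors deposited a table of 18852 probe sets by 4 arrays, read here as log2 signal; per the labels, the array was the Affymetrix Mouse Genome 430A 2.0. The values had been centred, with every row median within 4.8e-07 of 0, before the authors deposited the table. How the arrays were normalized, with which software and to which base logarithms were taken is not stated in these sources; if the base was e, differences in log2 units would grow by a factor of 1.44. The labels' protocols name extraction from cultured cells and another maker's labelling, so the laboratory steps are uncertain. That there were 4 arrays limits the precision.

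Probe sets were named from the platform annotation: 17209 had 1 symbol, 564 several, 1044 were not listed and 35 were controls. Probe sets were averaged per gene and compared in R 4.3.3 by limma 3.58.1 (lmFit and eBayes, two-sided, with a constant prior), checked on simulated data. The genes, lists and tests were chosen with earlier results of these data known. Named genes were all p53 target genes found, up to 4 of each list with the smallest p, Orm1, and the 3 genes most like the p53 target gene with the largest difference. Promoter motifs were counted in Python 3.11.15. Alternatives covered normalization, probe set choice, variance prior, the replicate number as a block and leaving out each array.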

Additional observations from a re-analysis of the deposited data

How the results depend on the processing

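Beside the values reported, each p53 target gene was recomputed under the alternatives, including each probe set alone. Of the 65 values whose difference moved, 59 kept their direction and their side of the threshold, 5 turned and 1 passed; the other 44, where the setting left the difference as it was or only rescaled it, bear on no direction. The 65 are not all separate values, since the widest probe set of Cdkn1a and 1424638_at alone gave the same -0.87. In the main fit every p53 target gene had an adjusted p of at least 0.994 (limma), so keeping to one side of the threshold says little. Zmat3 turned to 0.067 after quantile normalization. With each array left out in turn, the lowest and highest differences were -0.89 and -0.30 for Cdkn1a (adjusted p from 0.0450 to 1 in limma), 0.55 and 1.26 for Gadd45a, -0.51 and -0.18 for Mdm2, -0.52 and -0.01 for Ccng1, -0.79 and 0.0072 for Pmaip1, -0.071 and 0.27 for Sesn1, and -0.37 and 0.34 for Zmat3. The count of p53 target genes that passed ran from 0 to 1, and their median from -0.40 to 0.12. Over the whole table, the prior with a trend called 3 genes higher and 8 lower (none of them a p53 target gene), and leaving out arrays gave 0 to 46 higher and 0 to 183 lower, the upper ends without siControl replicate 1. Among the other named genes, Aurka, Chek1, Btg2, Ckap2, Lig1 and Ddit4 passed without siControl replicate 1. Those that turned direction ran from -0.94 to 0.084 for Apaf1, -0.090 to 0.47 for Cdkn1b, -0.68 to 0.30 for Pmp22 and -0.11 to 0.31 for Ccng2. The cause of these shifts was not tested.

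List medians with 1 array left out ran from -0.14 to 0.0093 for the regulators, -0.20 to 0.063 for arrest and feedback, -0.082 to -0.011 for apoptosis, -0.13 to 0.021 for DNA repair, 0.10 to 0.23 for metabolism and redox, -0.063 to 0.016 for the relatives, -0.036 to 0.22 for the BCL2 family and -0.45 to -0.13 for the cyclins and kinases. The DNA repair median was -0.0098 without probe sets whose names end in _s_at, _x_at or _a_at, where Mdm2 had none left. The BCL2 median was 0.13 with the widest probe set of each gene.

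The replicate numbers in the titles do not say that arrays are paired. With the replicate number as a block, 0 genes passed. In this balanced layout the block changes the error alone, so the differences of Cdkn1a and Gadd45a are -0.60 and 0.90 by construction (limma, adjusted p = 0.759 and 0.531). The deviations of the arrays numbered 1 from their group means had a correlation of 0.132 across genes.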
